A study of Mus musculus with 8 samples.

Results

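The genes described here are 45 lysosome genes, chosen by symbol from 23433 genes counted in newborn mouse skin. They were sorted here into 6 groups by the role of their proteins. These were cathepsins and other proteases, glycosidases, sulfatases, lipid hydrolases with lipid or cofactor carriers, membrane proteins, and proton pump genes with the regulator Tfeb. All 45 symbols were found and all 45 passed the filter on low counts, which left 14176 genes for testing. The rule that chose them used symbols and no measured value, though earlier results of these data were known. Atp6v0d2 and Ctsk each passed only through 1 of the groups described below, transgenic interfollicular epidermis and control hair germ in that order. Ctsk stayed at or below 2.72 CPM in every library (CPM, counts divided by the scaled library size and put on a common scale).

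The study asked how the microRNA-200 family bears on adhesion and polarity of cells as hair follicles form. Epidermal cells from 4 pups at P0.5 were sorted for K14RFP (a red reporter) and high α6 integrin, and split by P-cadherin into a P-cadherin high fraction, called hair germ (HG), and a P-cadherin low fraction, called interfollicular epidermis (IFE). The 4 groups of 2 libraries each were HG of transgenic pups, HG of control pups, IFE of transgenic pups and IFE of control pups. The transgenic pups, numbered 4 and 6, carried pTRE2-200bcl with K14rtTA, a doxycycline-dependent activator driven by the basal keratinocyte promoter K14. The controls carried 1 of these parts each: pup 3 had K14rtTA and pup 5 had pTRE2-200bcl, so the control libraries also differ in genotype. All dams received doxycycline chow while pregnant, all pups were of mixed strain background, and both fractions of a pup came from the same animal. With 2 pups per group, every p below rests on the spread between 2 animals, pooled over the 4 groups. The fit drew this spread toward that of other genes. It also treated both fractions of a pup as independent, except where pup was a block.

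Lysosomes are acidic organelles in which hydrolases break down material delivered by endocytosis, phagocytosis and autophagy. A vacuolar proton pump keeps them acid, heavily glycosylated membrane proteins such as LAMP1 and LAMP2 line them, and the transcription factor TFEB, with its relatives MITF and TFE3, drives many of their genes through an E-box sequence called the CLEAR element. Keratinocytes use lysosomes during differentiation, while macrophages and other phagocytes carry particularly large amounts of several cathepsins and of CD68.

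Each library held between 7109871 and 14039583 counts assigned to genes. The precursor of the transgenic microRNAs, counted as miR200primary, had 5973 and 6581 counts in HG of transgenic pups, against 2 and 21 counts in HG of control pups. In IFE it had 4499 and 9449 counts in transgenic pups, against 22 and 31 counts in control pups, so the labels fit the transgene. The ribosomal RNA precursor Rn45s took 29.0% of assigned counts in IFE of transgenic pup 4 and 30.6% in IFE of control pup 3, and between 3.56% and 13.01% elsewhere. Reads of Y-linked genes exceeded 4 counts in the libraries of pup 4 alone. Summed CPM of 8 hair germ markers were 788 and 1137 in HG against 440 and 479 in IFE of transgenic pups, and 743 and 846 in HG against 448 and 627 in IFE of control pups, with 3 of the 8 passing the test between fractions in transgenic pups and 0 in control pups.

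Lysosome genes were higher in IFE of transgenic pups than in IFE of control pups. Of the 45, 23 rose, none fell and 22 did not pass (edgeR quasi-likelihood test, Benjamini-Hochberg adjusted p under 0.05 over all 14176 genes). Over all genes tested, 4.99% rose and 1.35% fell in the same comparison. Without adjustment 34 of the 45 had a p under 0.05, against 17.3% of all genes. The median log2 fold change of the 45 was 1.23, against -0.01 over all genes, and 43 were above 0, against 49.2% of all genes. Both transgenic libraries lay above both control libraries for 42 of the 45, as they did for 27.9% of all genes. Summed over the 45 genes, the level was 8828 and 6513 CPM in transgenic pups, against 2944 and 2243 CPM in control pups, a ratio of means of 2.96. In HG the sums differed less, at 2832 and 2611 CPM in transgenic pups against 2265 and 1844 CPM in control pups, a ratio of 1.32. Both transgenic sums again lay above both control sums. The lowest of the 8 sums was thus in HG of control pup 5 and the highest in IFE of transgenic pup 4.

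**Figure D1:**
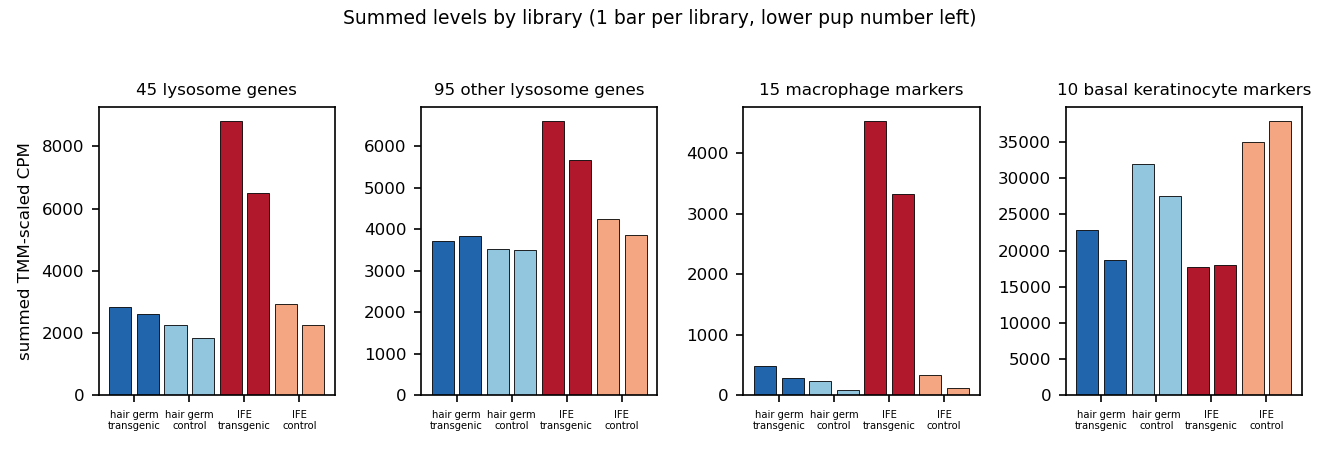
Summed CPM in each of the 8 libraries (vertical axes, CPM from 0; 1 bar per library, HG left of IFE, transgenic left of control, lower pup number left) for the 45 lysosome genes, 95 other lysosome genes, 15 macrophage markers and 10 basal keratinocyte markers. In the first panel both IFE libraries of transgenic pups, at 8828 and 6513 CPM, stand above the other 6 libraries, whose highest value is 2944 CPM.

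**Figure D2:**
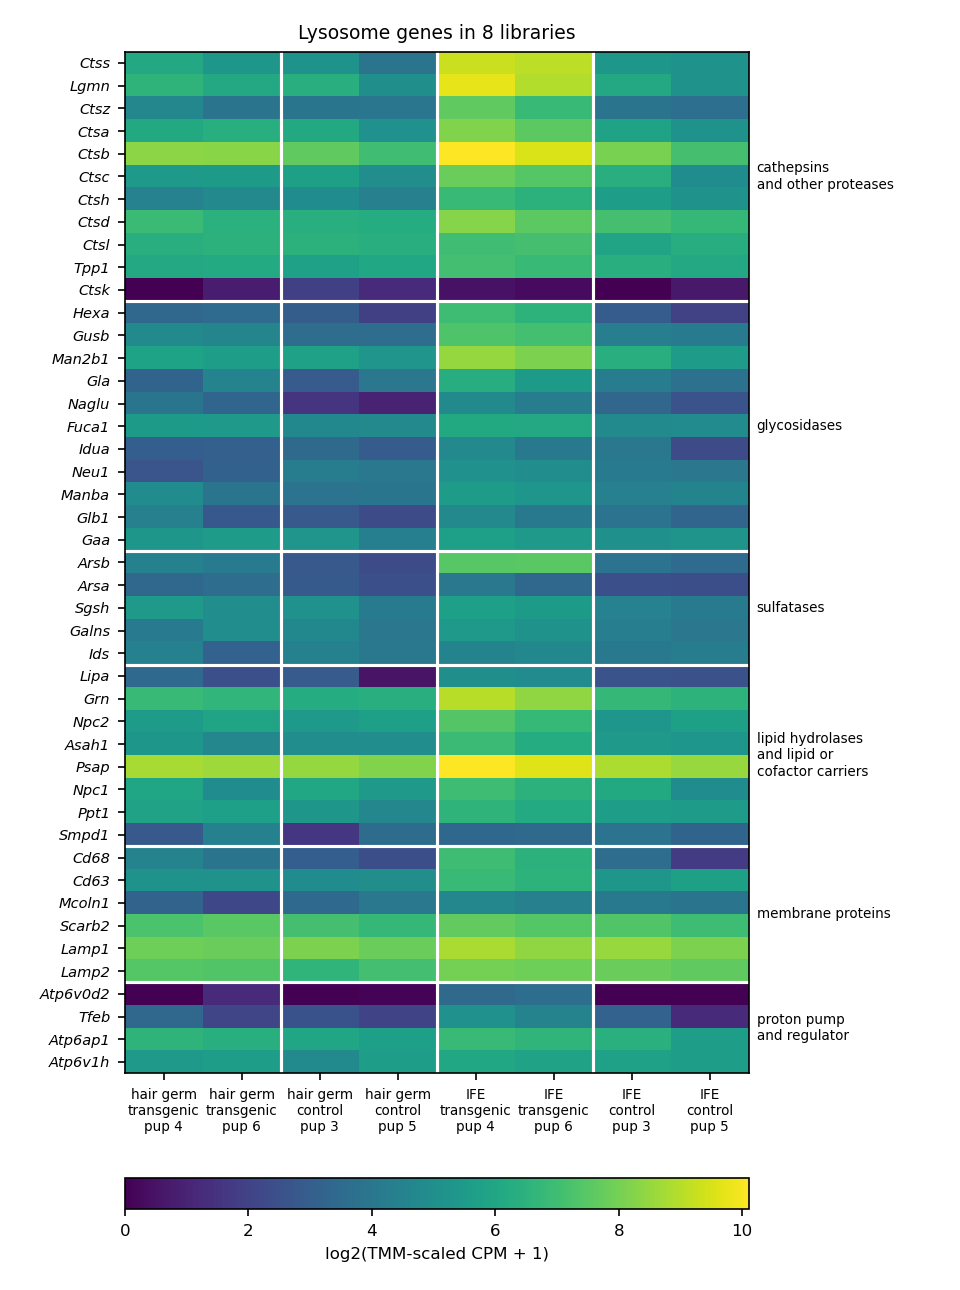
Level of each of the 45 lysosome genes in the 8 libraries (colour, log2 of TMM-scaled CPM + 1, brighter for higher; rows are genes grouped by role, columns are libraries with HG left of IFE and transgenic left of control). Most proteases and glycosidases are brightest in the 2 transgenic IFE columns, such as Ctss at 634 and 554 CPM, while Lamp1 and Lamp2 are bright in all 8 columns.

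The promoters are shown for 6 members, 4 that hold the E-box core CACGTG at the heart of the CLEAR element (Lamp1, Ctsd, Ctsa and Lgmn) and 2 of the strongest risers in IFE that hold none (Hexa and Ctss). Each is the RefSeq window of 300 bases, 250 before and 50 after the annotated start, 5′ to 3′ on the gene's strand, build GRCm38.p6, with every core in capitals. The windows are chr8:13158911-13159210 on the + strand for Lamp1, chr7:142387778-142388077 on the - strand for Ctsd, chr2:164833523-164833822 on the + strand for Ctsa, chr12:102439043-102439342 on the - strand for Lgmn, chr9:59539290-59539589 on the + strand for Hexa and chr3:95526536-95526835 on the + strand for Ctss. For Ctsa and Lgmn the window shown lies inside the gene by the gene coordinates used here. A second RefSeq window of each spans the annotated 5′ end of the gene and holds no core. These are chr2:164832622-164832921 for Ctsa and chr12:102439679-102439978 for Lgmn.
Lamp1: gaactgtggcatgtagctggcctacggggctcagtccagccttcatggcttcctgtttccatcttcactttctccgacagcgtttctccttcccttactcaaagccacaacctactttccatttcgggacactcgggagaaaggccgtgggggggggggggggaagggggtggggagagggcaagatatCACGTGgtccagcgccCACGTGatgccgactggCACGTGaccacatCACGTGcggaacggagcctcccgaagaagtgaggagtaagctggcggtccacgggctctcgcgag
Ctsd: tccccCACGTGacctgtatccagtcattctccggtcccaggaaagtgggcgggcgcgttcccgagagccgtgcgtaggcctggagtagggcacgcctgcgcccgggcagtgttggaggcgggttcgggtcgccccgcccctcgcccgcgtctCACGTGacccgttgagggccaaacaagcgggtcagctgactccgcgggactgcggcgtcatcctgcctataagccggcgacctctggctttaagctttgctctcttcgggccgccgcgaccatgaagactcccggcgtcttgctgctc
Ctsa: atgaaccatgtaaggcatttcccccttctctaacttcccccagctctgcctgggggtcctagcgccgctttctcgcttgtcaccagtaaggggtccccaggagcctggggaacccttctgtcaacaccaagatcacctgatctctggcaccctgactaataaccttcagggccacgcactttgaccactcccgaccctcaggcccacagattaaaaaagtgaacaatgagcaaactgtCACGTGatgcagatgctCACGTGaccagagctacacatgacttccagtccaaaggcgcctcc
Lgmn: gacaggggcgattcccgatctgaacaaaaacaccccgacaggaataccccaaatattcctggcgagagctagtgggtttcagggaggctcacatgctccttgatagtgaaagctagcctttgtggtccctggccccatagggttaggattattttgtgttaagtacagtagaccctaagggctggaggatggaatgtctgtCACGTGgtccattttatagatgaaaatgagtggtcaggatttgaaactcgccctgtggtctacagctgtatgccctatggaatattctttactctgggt
Hexa: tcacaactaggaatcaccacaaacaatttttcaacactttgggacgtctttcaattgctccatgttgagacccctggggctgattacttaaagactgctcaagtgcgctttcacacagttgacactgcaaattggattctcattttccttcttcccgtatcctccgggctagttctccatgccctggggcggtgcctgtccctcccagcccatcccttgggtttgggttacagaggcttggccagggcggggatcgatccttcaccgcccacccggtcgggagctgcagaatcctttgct
Ctss: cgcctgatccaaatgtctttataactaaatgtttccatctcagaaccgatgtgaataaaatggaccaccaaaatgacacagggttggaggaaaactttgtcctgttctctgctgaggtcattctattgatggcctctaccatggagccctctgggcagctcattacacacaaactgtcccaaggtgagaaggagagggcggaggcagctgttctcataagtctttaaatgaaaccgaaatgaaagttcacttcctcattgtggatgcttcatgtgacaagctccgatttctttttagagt

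Lamp1, the gene of a major lysosomal membrane glycoprotein, held 4 cores within 61 bases upstream of its start, at -61, -45, -28 and -15. Ctsa had cores at -12 and 5, Ctsd at -245 and -98, and Lgmn at -49. Windows were found for 38 of the 45 members, and 12 of these genes (31.6%) held CACGTG in at least 1 window, against 8.09% of all 27025 genes in the RefSeq table and 11.5% of the 10306 tested genes with a window. The core is its own reverse complement, so 1 search reads both strands. The form extended by 1 base on each side, TCACGTGA, which overlaps the core, was in 4 of 38 members (10.5%; Ctsa, Ctsd, Gla and Mcoln1), against 1.12% of genes in the table and 2.13% of tested genes. The form extended by 2 bases, GTCACGTGAC, was in 0 of 38, against 0.37% of genes in the table and 0.786% of tested genes. A match describes the letters of the window and is not evidence of binding. Among members with a window, 5 of the 19 that rose in IFE held the core, as did 7 of the 19 that did not pass. The median log2 fold change in IFE was 1.17 for members with the core and 1.26 for members without it. Ctsb, Ctsh, Galns, Asah1, Npc1, Atp6v1h and Atp6v0d2 have no window in the table.

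**Figure D3:**
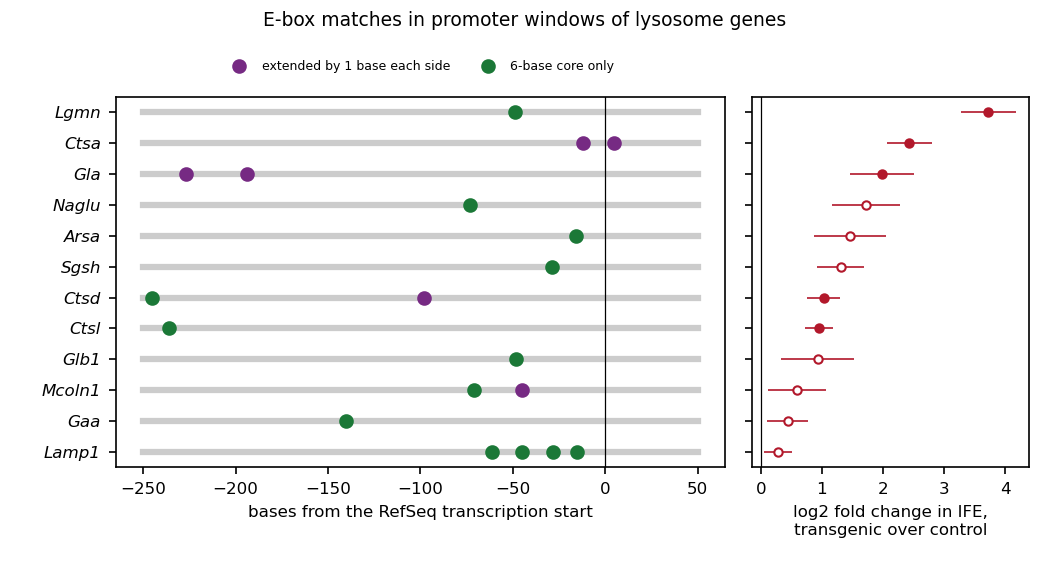
Left, positions of the E-box core in the promoter windows of the 12 members that hold one (horizontal axis, bases from the RefSeq start; grey bars are windows, purple marks are matches extended by 1 base on each side, green marks are the core only). Right, their log2 fold change in IFE, transgenic over control (points with SE; filled points passed the edgeR test). Lamp1 has 4 marks and did not pass at 0.29, while Ctsa, Ctsd, Ctsl, Gla and Lgmn hold the core and rose.

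Most cathepsins and other lysosomal proteases rose in IFE. Of 11 genes, 9 rose, with a median log2 fold change of 1.83, and their summed level was 3378 ± 818 CPM in transgenic pups, against 713 ± 200 CPM in control pups (SD, n = 2 each). Ctss (chr3:95526786-95556403), the gene of cathepsin S, a cysteine protease that trims the invariant chain in antigen-presenting cells, had 634 and 554 CPM in transgenic pups, against 40.1 and 34.1 CPM in control pups. Both control libraries lay far below the lower transgenic library, and the log2 fold change was 4.01 ± 0.40 (SE; edgeR adjusted p = 0.000197). Lgmn (chr12:102394084-102439813), the gene of legumain, an asparaginyl endopeptidase that activates other cathepsins, had 853 and 491 CPM in transgenic pups, against 67.0 and 36.0 CPM in control pups (log2 fold change 3.72 ± 0.46, edgeR adjusted p = 0.000521). Ctsz (chr2:174427493-174439039), the gene of the carboxypeptidase cathepsin Z, had 200 and 113 CPM against 13.8 and 11.97 CPM in the same order (log2 fold change 3.61 ± 0.38, edgeR adjusted p = 0.000241). These 3 genes rose between 12.2-fold and 16.1-fold, and for none did the pups of the 2 genotypes overlap.

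The other cathepsins that passed rose less. Ctsb, the gene of cathepsin B, was among the most abundant members, with 1076 and 747 CPM in IFE of transgenic pups, against 270 and 139 CPM in IFE of control pups (log2 fold change 2.16 ± 0.32, edgeR adjusted p = 0.00188). Ctsa, which encodes the carboxypeptidase that also protects β-galactosidase and neuraminidase, had 295 and 190 CPM in transgenic pups, against 54.9 and 35.7 CPM in control pups (2.43 ± 0.36, edgeR adjusted p = 0.00178). Ctsc, the gene of the dipeptidyl peptidase that activates granule proteases of leukocytes, had 220 and 171 CPM against 82.9 and 28.9 CPM (1.83 ± 0.42, edgeR adjusted p = 0.0223). The spread between control pups was wide for Ctsb and Ctsc, yet neither control reached a transgenic library. Ctsh, the gene of an aminopeptidase, had 110 and 89.0 CPM in transgenic pups and 48.8 and 35.0 CPM in control pups (1.26 ± 0.30, edgeR adjusted p = 0.0250). Ctsd, the gene of the main aspartic protease of lysosomes, had 304 and 189 CPM in transgenic pups, against 138 and 104 CPM in control pups (1.03 ± 0.27, edgeR adjusted p = 0.0431). Ctsl, the gene of a cysteine protease with a known part in the hair cycle and epidermal renewal of mice, had 129 and 139 CPM in transgenic pups and 59.6 and 77.8 CPM in control pups (0.96 ± 0.23, edgeR adjusted p = 0.0261). Ctsd and Ctsl thus rose about as much as each other, and far less than Ctss. Tpp1, the gene of a tripeptidyl peptidase, had a log2 fold change of 0.76 and did not pass. Ctsk, the collagen-degrading cathepsin of osteoclasts, had at most 0.594 CPM in any IFE library.

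Among the glycosidases, 5 of 11 rose (Hexa, Gusb, Man2b1, Gla and Fuca1), and the summed level was 888 ± 162 CPM in transgenic pups, against 229 ± 41.1 CPM in control pups (SD, n = 2 each). Hexa (chr9:59539540-59565109), which encodes the α subunit of β-hexosaminidase, had 123 and 92.5 CPM in transgenic pups, against 6.62 and 2.97 CPM in control pups. Its log2 fold change was 4.60 ± 0.49 (edgeR adjusted p = 0.000241), a 24.3-fold difference and the highest among members with counts in all 4 IFE libraries. Gusb (chr5:129989011-130003049), the gene of β-glucuronidase, had 159 and 135 CPM against 18.8 and 16.3 CPM (3.07 ± 0.27, edgeR adjusted p = 0.000123). Man2b1 (chr8:85083270-85098282), the gene of lysosomal α-mannosidase, had 365 and 273 CPM against 79.1 and 46.9 CPM (2.35 ± 0.30, edgeR adjusted p = 0.000666). Libraries of 1 genotype lay close together for Hexa, Gusb and Man2b1 compared with the distance between genotypes. Fuca1, the gene of α-fucosidase, had 68.9 and 66.7 CPM in transgenic pups and 27.2 and 28.1 CPM in control pups (1.29 ± 0.26, edgeR adjusted p = 0.0122). The other 6 glycosidases (Gaa, Glb1, Idua, Manba, Neu1 and Naglu) had log2 fold changes between 0.44 and 1.72 and did not pass.

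Among the 5 sulfatases, which remove sulfate from glycosaminoglycans and sulfatides, Arsb alone passed in IFE by edgeR. Arsb (chr13:93771630-93943016), the gene of arylsulfatase B, had 179 and 183 CPM in transgenic pups, against 13.2 and 10.4 CPM in control pups. With a log2 fold change of 3.96 ± 0.30 (edgeR adjusted p = 4.24e-05), it had the smallest p of the 45. Arsa, Galns, Ids and Sgsh had log2 fold changes between 0.46 and 1.46, and none of these 4 passed by edgeR. DESeq2 also called Sgsh. Of the 8 lipid hydrolases and carriers, 4 rose. Psap (chr10:60277627-60302597), the gene of prosaposin, precursor of the saposins that present sphingolipids to their hydrolases, had 1101 and 782 CPM in transgenic pups, against 458 and 369 CPM in control pups (1.19 ± 0.23, edgeR adjusted p = 0.00941). Grn (chr11:102430315-102437048), the gene of progranulin, had 516 and 340 CPM against 104 and 91.3 CPM (2.13 ± 0.24, edgeR adjusted p = 0.000315). Both are abundant, and together with Ctsb, Lgmn and Ctss they made up 54.0% of the summed difference in IFE. Npc2, the gene of a soluble cholesterol carrier, had 167 and 109 CPM in transgenic pups and 39.2 and 53.1 CPM in control pups (1.57 ± 0.29, edgeR adjusted p = 0.00662). Asah1, the gene of acid ceramidase, had 116 and 76.1 CPM in transgenic pups and 43.0 and 38.7 CPM in control pups (1.23 ± 0.31, edgeR adjusted p = 0.0346). Lipa, the gene of lysosomal acid lipase, had a log2 fold change of 2.63 ± 0.74 and missed the threshold (edgeR adjusted p = 0.0601). Npc1, Ppt1 and Smpd1 lay between -0.11 and 1.14 and did not pass.

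The membrane protein genes had the lowest median log2 fold change of the 6 role groups, 0.49. Lamp1 (chr8:13159161-13175338) had 451 and 344 CPM in IFE of transgenic pups and 376 and 276 CPM in IFE of control pups, a log2 fold change of 0.29 ± 0.22 (edgeR adjusted p = 0.633). Lamp2 (chrX:38401357-38456454), whose product also serves chaperone-mediated autophagy, had 255 and 235 CPM in transgenic pups and 223 and 197 CPM in control pups (0.22 ± 0.21, edgeR adjusted p = 0.719). For Lamp1 the genotypes overlapped, since control pup 3 exceeded transgenic pup 6, and neither gene is shown to be unchanged by its p. Cd68 (chr11:69664213-69666153), a LAMP-related glycoprotein of macrophages, had 126 and 88.6 CPM in transgenic pups, against 11.3 and 2.38 CPM in control pups (4.15 ± 0.56, edgeR adjusted p = 0.00102). Cd63, a tetraspanin of late endosomes and of melanosome and other secretory organelles, had 114 and 91.1 CPM in transgenic pups and 40.1 and 52.2 CPM in control pups (1.14 ± 0.26, edgeR adjusted p = 0.0210). Cd68 and Cd63 were the only 2 of the 6 membrane protein genes that rose. Scarb2, the receptor that carries β-glucocerebrosidase to lysosomes, and the calcium channel gene Mcoln1 had log2 fold changes of 0.38 and 0.60 and did not pass.

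Of the proton pump members and the regulator, 2 of 4 passed in IFE. Tfeb (chr17:47737030-47792419) had 33.3 and 21.8 CPM in IFE of transgenic pups, against 8.01 and 1.27 CPM in IFE of control pups (2.80 ± 0.75, edgeR adjusted p = 0.0483). The control libraries differed widely from each other at this low level, and the p lies close to the threshold. The call was lost under 10 of the 18 alternatives, as was that of Ctsd. Atp6v0d2 (chr4:19876841-19922605), a pump subunit isoform known from osteoclasts, macrophages and kidney of mice, had 10.3 and 11.7 CPM in transgenic pups and no count in either control library. With 231 counts against 0, and a floor of 3 counts over the control group, its level was at least 65.3-fold higher. Since it passed the filter through its level in this group alone, its test is no support: leaving it out, 22 of 44 members rose in IFE. The subunit genes Atp6ap1 and Atp6v1h had log2 fold changes of 0.68 and 0.21 and did not pass.

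**Figure D4:**
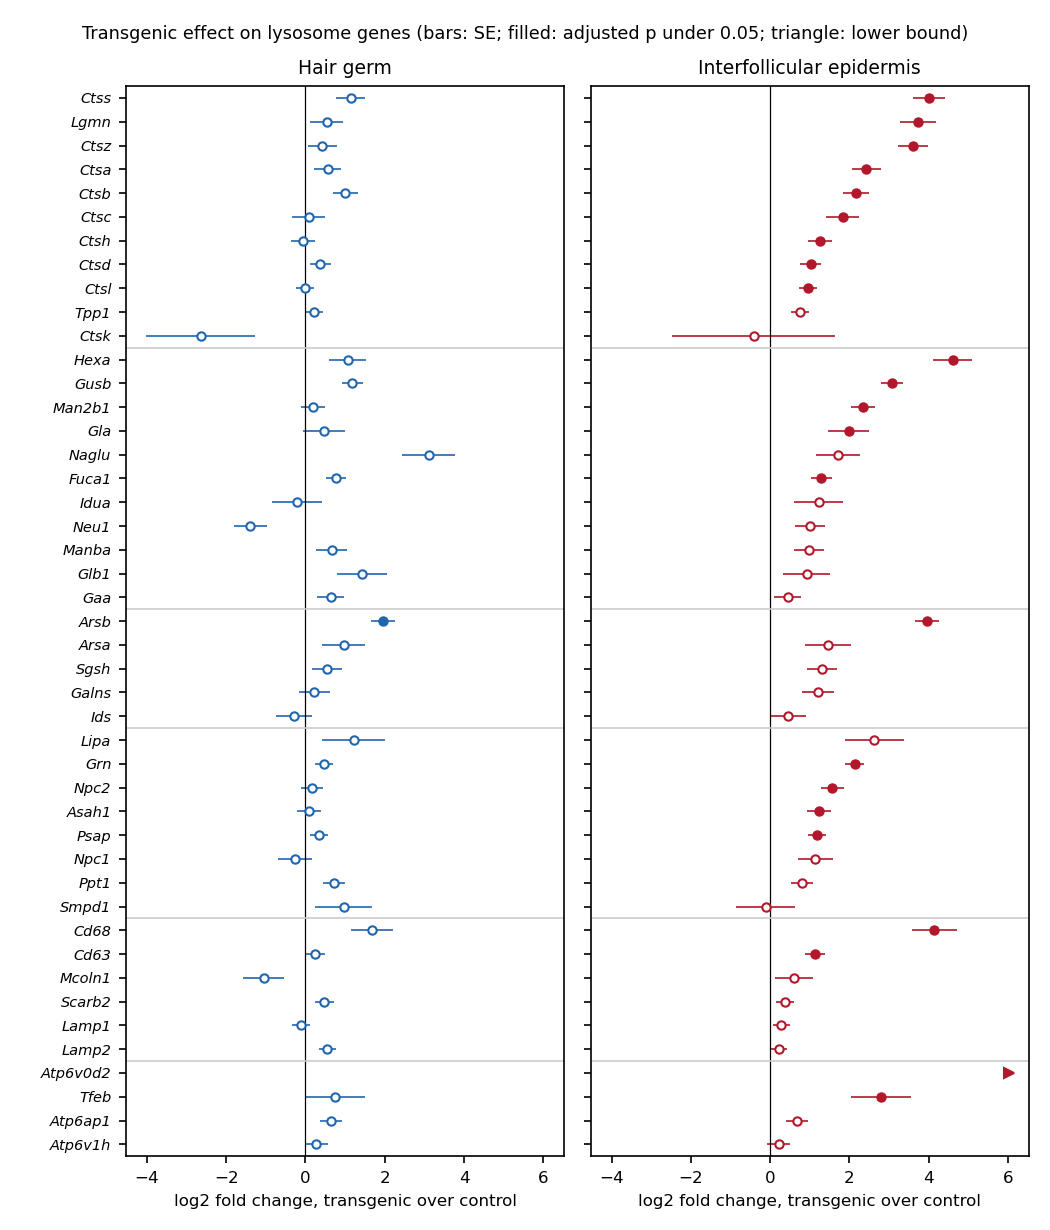
Log2 fold change, transgenic over control, of each member in HG (left) and IFE (right), on a shared axis (points are estimates, bars are ± SE, filled points passed the edgeR test; genes are ordered by role). Atp6v0d2 appears as a lower bound only in IFE and has no point in HG, where its libraries had few or no counts. Points in the IFE panel spread up to 4.60, while in HG only Arsb, at 1.95, passed.

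**Figure D5:**
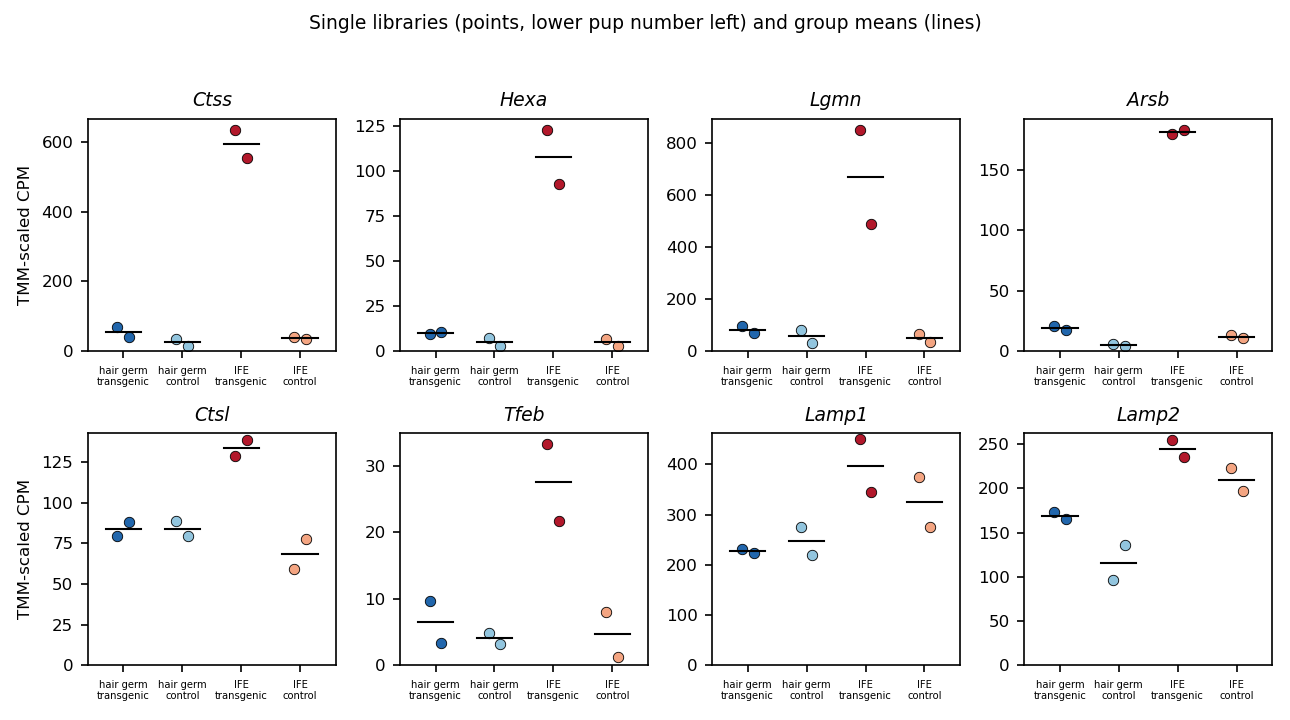
CPM per library of 8 lysosome genes (vertical axes, TMM-scaled CPM; 1 point per pup, lines are group means, HG groups left of IFE groups, transgenic left of control). Ctss, at 634 and 554 CPM in IFE of transgenic pups, stands apart from the other 6 libraries, whereas the IFE points of Lamp1 overlap between genotypes.

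Markers of several other cell types also differed in IFE. In the same comparison 4.99% of all genes rose, 1.35% fell and 17.3% had an unadjusted p under 0.05. All 15 macrophage markers rose in IFE, and their summed level was 4541 and 3330 CPM in transgenic pups, against 328 and 119 CPM in control pups. Csf1r, the receptor for macrophage colony-stimulating factor, had 969 and 707 CPM in transgenic pups, against 67.7 and 26.3 CPM in control pups (log2 fold change 4.18), and Lyz2, the lysozyme of macrophages and granulocytes, 339 and 237 CPM against 4.88 and 5.01 CPM (5.86). All 7 leukocyte markers rose too, at 1276 and 1060 CPM summed in transgenic pups against 81.0 and 55.3 CPM in control pups, among them Ptprc, which encodes CD45, at 378 and 296 CPM against 19.9 and 19.7 CPM (4.09). Langerhans cell markers rose in 3 of 6 (Cd74, H2-Aa and Itgax), with the defining gene Cd207 at 3.51 and 4.53 CPM in transgenic pups and no count in control pups. Of 6 osteoclast markers tested, 3 rose (Dcstamp, Ocstamp and Tnfrsf11a), while Acp5 and Mmp9 did not pass and Calcr had no count in IFE. The log2 fold changes of the 6 ran up to 9.09, above the 4.60 of Hexa. Which markers passed the filter through IFE of transgenic pups alone is not given here, and any such call is no support. Melanocyte markers rose in 4 of 9 (Dct, Gpnmb, Kit and Pmel), at 112 and 101 CPM summed in transgenic pups against 20.2 and 17.7 CPM in control pups. None of the T cell, fibroblast, endothelial or dermal papilla markers tested passed by edgeR (4, 3, 3 and 3 genes, of which 0, 2, 2 and 0 had an unadjusted p under 0.05) or by limma-voom, while DESeq2 called the fibroblast gene Dcn. Further, of 5 mast cell genes, 4 had no count in any library and none could be tested. Basal keratinocyte markers fell in 6 of 10 (Col17a1, Itgb4, Krt14, Krt15, Lamb3 and Trp63), to 17753 and 18034 CPM summed in transgenic pups, against 35074 and 37948 CPM in control pups. In bulk samples, fewer cells of a type and less RNA per cell cannot be told apart. The part of these cells in the levels of lysosome genes was not tested.

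Of the 45 members, 8 are also known as genes of phagocytes (Cd68, Ctss, Ctsk, Atp6v0d2, Lgmn, Ctsc, Ctsz and Ctsh), and 7 of these 8 rose in IFE (6 of 7 without Atp6v0d2). Their summed level was 2154 and 1519 CPM in transgenic pups, against 264 and 149 CPM in control pups. Of the other 37, 16 rose, with a median log2 fold change of 1.19 and a summed level of 6674 and 4994 CPM in transgenic pups, against 2680 and 2094 CPM in control pups. Many of these 37 are also expressed in phagocytes, so the division is one of names.

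The Rn45s-rich IFE libraries, 1 of each genotype, were also those with the higher sum of lysosome genes in their group. Between the Rn45s-rich libraries alone, the sum was 8828 CPM in the transgenic against 2944 CPM in the control pup, a ratio of 2.999. Between the other IFE libraries it was 6513 against 2243 CPM, a ratio of 2.90, and 44 of 45 members were higher in the transgenic library in each pairing. The share of all genes was not counted for these single pairs. Without the IFE library of transgenic pup 4, control pup 5 or control pup 3, a group held a single library. The share of all genes called in these fits is not given here. The count of 23 risers fell in each of them. Without both libraries of pup 4 it was 9 (Arsb, Cd68, Ctss, Ctsz, Grn, Gusb, Hexa, Lgmn and Man2b1, with 1.39% of all genes called), and without the 2 Rn45s-rich libraries it was 12 (1.28% of all genes). The same 9 passed under each of the 18 alternatives tried.

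In HG, 1 of the 45 lysosome genes differed between transgenic and control pups. Arsb rose, none fell and 44 did not pass, where 0.762% of all genes rose and 0.19% fell. The median log2 fold change was 0.48, against 0.04 over all genes, and 36 of 45 were above 0, against 52.8% of all genes. Without adjustment 13 had a p under 0.05, against 17.1% of all genes. Both transgenic libraries lay above both control libraries for 20 members (22.4% of all genes did) and below them for Ctsk, Neu1 and Mcoln1 (16.9% of all genes). Ctsk passed the filter through HG of control pups alone, so its place here is no support. Arsb had 20.7 and 17.4 CPM in HG of transgenic pups, against 6.06 and 3.92 CPM in HG of control pups (1.95 ± 0.31, edgeR adjusted p = 0.0195), with no overlap, and it lost its call under 8 of the 18 alternatives. Naglu, the gene of α-N-acetylglucosaminidase, had the next smallest p: 14.3 and 8.72 CPM in transgenic pups against 1.84 and 0.930 CPM in control pups (3.11 ± 0.67, edgeR adjusted p = 0.0535). Gusb had 27.2 and 23.4 CPM in transgenic pups and 11.1 and 11.2 CPM in control pups (1.18 ± 0.27, edgeR adjusted p = 0.0626). Neither Naglu nor Gusb passed, although for both the genotypes did not overlap.

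Other proteases and regulators in HG did not pass. Ctsb had 327 and 317 CPM in transgenic pups and 196 and 126 CPM in control pups (0.999 ± 0.31, edgeR adjusted p = 0.143). Ctss had 67.4 and 39.4 CPM in transgenic pups and 35.3 and 13.8 CPM in control pups (1.14 ± 0.37, edgeR adjusted p = 0.158). Both control libraries lay below both transgenic libraries for these genes as well. Hexa had 9.42 and 10.4 CPM in transgenic pups and 6.94 and 2.79 CPM in control pups (1.06, edgeR adjusted p = 0.284). Cd68 had 22.0 and 13.7 CPM in transgenic pups and 7.12 and 4.32 CPM in control pups (1.67, edgeR adjusted p = 0.150). Tfeb had 9.59 and 3.27 CPM in transgenic pups and 4.92 and 3.19 CPM in control pups (0.74, edgeR adjusted p = 0.662). The Tfeb values of transgenic pup 6 and both controls were thus much alike. Ctsd and Ctsl had log2 fold changes of 0.37 and -0.00, and Lamp1 had 232 and 224 CPM in transgenic pups and 275 and 220 CPM in control pups (-0.12, edgeR adjusted p = 0.841). Lamp2 had 173 and 165 CPM in transgenic pups and 96.1 and 135 CPM in control pups (0.55, edgeR adjusted p = 0.222). Atp6v0d2 had 0 and 11 counts in transgenic pups and 0 and 1 count in control pups, too few for a fold. Neu1 had 5.37 and 7.76 CPM in transgenic pups and 18.5 and 15.5 CPM in control pups (-1.39 ± 0.41, edgeR adjusted p = 0.126). Ctsk, at no more than 2.72 CPM, had a log2 fold change of -2.65 that did not pass. It cleared the filter through HG of control pups alone, so this fold is no support.

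By role, the ratio of summed levels in HG, transgenic over control, was 1.46 for proteases, 1.45 for glycosidases and 1.41 for sulfatases. It was 1.26 for lipid hydrolases and carriers, 1.17 for membrane proteins and 1.43 for pump genes with Tfeb. In IFE the same ratios were 4.74, 3.88, 4.35, 2.58, 1.42 and 1.66. Macrophage markers in HG summed to 486 and 285 CPM in transgenic pups, against 232 and 83.3 CPM in control pups. Of 15, 2 passed (Cd14 and Lyz2), and 4 of 7 leukocyte markers rose (Itgb2, Laptm5, Ptprc and Sfpi1), where 0.762% of all genes rose. Melanocyte markers rose in 4 of 9, at 135 and 178 CPM summed in transgenic pups against 28.8 and 27.4 CPM in control pups. No Langerhans cell or basal keratinocyte marker passed by edgeR. Of these, 2 of 6 and 2 of 10 had an unadjusted p under 0.05, where 17.1% of all genes did. DESeq2 called 3 basal keratinocyte markers in HG (Col17a1, Krt14 and Krt15) and no Langerhans cell marker, and limma-voom called 0 of both. Leaving out 1 library at a time left 0 to 2 members passing in HG. Without both libraries of pup 4 none passed (0.00673% of all genes), nor without the 2 Rn45s-rich libraries (0.132% of all genes).

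Whether the transgenic effect differed between HG and IFE was tested directly, as the HG effect minus the IFE effect. The median difference over the 45 was -1.16 log2 units, against 0.06 over all genes, and 21 members had an unadjusted p under 0.05 (8.11% of all genes did). After adjustment 1 member passed, where 0.134% of all genes passed. This was Ctsz, with an effect of 0.43 in HG and 3.61 in IFE and a difference of -3.18 ± 0.51 (edgeR adjusted p = 0.0479). Lgmn had a difference of -3.18 ± 0.60 (edgeR adjusted p = 0.0755), Ctss of -2.87 ± 0.53 (edgeR adjusted p = 0.0707) and Hexa of -3.54 ± 0.68 (edgeR adjusted p = 0.0797), all 3 past the threshold only before adjustment. With pup as a block, since both fractions of a pup are 1 animal, 7 members passed: Ctsc, Ctss, Ctsz, Grn, Hexa, Lgmn and Man2b1. The share of all genes passing with the block is not given here. With pup 4 left out no member passed, as 0.0% of all genes did, and the same held with the 2 Rn45s-rich libraries left out. For the other members, an effect that passed in IFE and not in HG is not shown to differ between the fractions.

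HG against IFE within transgenic pups showed lysosome genes lower in HG. Of the 45, 20 fell in HG relative to IFE, none rose and 25 did not pass, where 3.75% of all genes fell and 0.875% rose. The median log2 difference was -1.38, against 0.02 over all genes. Both HG libraries lay below both IFE libraries for 39 members (28.9% of all genes), and 33 had an unadjusted p under 0.05 (18.5% of all genes). Atp6v0d2 is in both counts and among the members lower in HG within each pup below. It passed the filter through IFE of transgenic pups alone, so its place there is no support. This comparison uses the same IFE libraries of transgenic pups as the one between genotypes in IFE, so it is not a separate observation of them. Within pup 4 all 45 members were lower in HG, with sums of 2832 CPM in HG against 8828 CPM in IFE. Within pup 6, 40 of 45 were lower in HG, at 2611 CPM against 6513 CPM. The share of all genes lower in HG was not counted within single pups. Ctss had 67.4 and 39.4 CPM in HG against 634 and 554 CPM in IFE of the same pups (-3.47 ± 0.39, edgeR adjusted p = 0.000899), and Arsb 20.7 and 17.4 CPM against 179 and 183 CPM (-3.24 ± 0.29, edgeR adjusted p = 0.000317). Neu1, the gene of lysosomal neuraminidase and not among the risers in IFE, had 5.37 and 7.76 CPM in HG against 33.7 and 30.2 CPM in IFE (-2.30 ± 0.41, edgeR adjusted p = 0.00780). HG values of these genes lay far below the IFE values in both pups. Lamp1 did not pass (-0.80 ± 0.23, edgeR adjusted p = 0.0717), nor did Lamp2 (-0.53 ± 0.21, edgeR adjusted p = 0.201). With pup as a block 24 members passed: Lamp1, Mcoln1, Npc1, Tfeb and Tpp1 were added and Gla was lost. No share of all genes is given for the fit with this block.

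Without the HG library of transgenic pup 6 or pup 4, or the IFE library of pup 4, a group held a single library. The share of all genes called in these fits is not given here. The count of 20 dropped in each of them. It was 0 without both libraries of pup 4, where 0.0% of all genes were called, and 11 without the 2 Rn45s-rich libraries (1.26% of all genes). Macrophage markers moved the same way, at 486 and 285 CPM summed in HG against 4541 and 3330 CPM in IFE of transgenic pups; their part in the result was not tested.

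In control pups no member passed between HG and IFE (edgeR), as 0.00705% of all genes did. Without adjustment 7 members had a p under 0.05 (8.47% of all genes), DESeq2 called 1 (Lamp2) and limma-voom called 0. The median log2 difference was -0.31, against -0.04 over all genes, and the fractions did not overlap for 4 members higher in HG (14.2% of all genes) and 17 lower (19.2%). Scaling by library size alone gave 0.03, but it also moved the median of all genes to 0.26, so that the members again lay below it. Of the 4 members higher in HG without overlap, Ctsk passed the filter through HG of control pups alone, so it is no support. Within pup 3, 30 members were lower in HG, at a summed 2265 CPM in HG against 2944 CPM in IFE. Within pup 5, 30 were lower, at 1844 CPM against 2243 CPM. Within single pups the share of all genes was not counted, so these counts have no background beside them. Lamp2 had 96.1 and 135 CPM in HG against 223 and 197 CPM in IFE (-0.85 ± 0.22, edgeR adjusted p = 0.395).

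Levels were compared between genes after division by exon length. In mean CPM per kilobase of exon, the leading members in IFE of transgenic pups were Ctss at 437, Psap at 343, Lgmn at 289, Ctsb at 151 and Lamp1 at 149. In IFE of control pups the order was Psap at 151, Lamp1 at 122, Ctsd at 51.6, Ctsb at 33.8 and Grn at 28.1. In HG, Psap led at 152 in transgenic and 119 in control pups, followed by Lamp1 at 85.4 in transgenic and 92.6 in control pups. Cd68 ranked 9 of 45 in IFE of transgenic pups and 25 in IFE of control pups, and Hexa ranked 10 and 37.

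Other lysosome genes, listed by function and not among the 45, were examined in the same IFE comparison, in which 4.99% of all genes rose. Of 25 further hydrolases and cofactors, 6 rose, among them Gm2a, Naaa, Acp2 and Fuca2, with a median log2 fold change of 0.98 over the 25. Of 17 other pump subunits tested 5 rose (Atp6v0a1, Atp6v1b2, Tcirg1, Atp6ap2 and Atp6v0d1), with a median of 1.01. Of 17 other membrane proteins and transporters none passed (5 had an unadjusted p under 0.05; DESeq2 and limma-voom also called 0), with a median of 0.67. Sorting genes rose in 3 of 17 (Ap1b1, Cltc and M6pr, the last a receptor that carries hydrolases from the Golgi), with a median of 0.29. Of 17 regulators tested, Mitf and Fnip2 rose, with a median of 0.30 over the 17. Mitf, a relative of Tfeb and the master regulator of melanocytes, also active in macrophages and osteoclasts, had 54.1 and 43.2 CPM in transgenic pups, against 4.18 and 3.57 CPM in control pups (3.67). Of 24 autophagy genes 1 rose, Sqstm1, a share near that of all genes, with a median of 0.16. None of the genes on these lists fell.

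The summed level of the 5 lists without autophagy was 6619 and 5670 CPM in IFE of transgenic pups, against 4247 and 3864 CPM in IFE of control pups, a ratio of 1.52, where the 45 members had 2.96. In HG it was 3713 and 3840 CPM in transgenic pups, against 3535 and 3499 CPM in control pups, a ratio of 1.07. No gene of these 93 passed in HG by edgeR or limma-voom (14 had an unadjusted p under 0.05, where 17.1% of all genes did), while DESeq2 called 4 (Acp2, Atp6v0e, Ctns and Mitf). Counts of Ctsa, Ctsb, Ctsz, Hexa, Glb1, Idua, Sgsh, Ppt1, Grn, Lamp1 and Atp6v1h are uncertain to the extent that another counted gene overlaps an exon of each, and the counting's use of strand is not stated in these sources.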

How the data were processed

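Total RNA of 8 sorted cell samples was turned into libraries with Clontech's stranded SMARTer kit, per the labels' protocols. The authors deposited read counts per gene, and the submitters' processing notes name TopHat, HTSeq and DESeq2 with the mouse build mm10 (GRCm38). Their versions, and whether strand was used, are not stated there. Rows that name no gene were left out: between 23.4% and 42.4% of recorded reads were assigned to genes. The authors also deposited 8 columns of normalised signal, which were not used. Floors cover counting error only, and 3 counts correspond to between 0.199 and 0.522 CPM.

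The counts were tested with edgeR 4.0.16 in R 4.3.3: genes kept by filterByExpr, TMM scaling, glmQLFit with 4 group means over all 8 libraries and glmQLFTest, two-sided, with Benjamini-Hochberg adjustment over all 14176 genes and a threshold of 0.05. CPM are counts divided by the TMM-scaled library size. The contrasts were transgenic against control in HG and in IFE, HG against IFE by genotype, and how the transgenic effects differ (HG minus IFE). The script was checked on simulated counts. DESeq2 1.42.0, limma 3.58.1 (voom), edgeR's older quasi-likelihood method, other scalings, no filter, Rn45s left out, a fit on 1 fraction only, libraries left out and a pup block were alternatives. The labels tie both fractions of a pup to 1 animal; deviations from group means of a pup's 2 libraries correlated at r = 0.117 in control and 0.0868 in transgenic pups over the 14176 genes tested, and at 0.363 and 0.240 over the 7675 more highly expressed ones.

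Members and lists (other lysosome genes by function, autophagy, and markers of macrophages, leukocytes, Langerhans cells, osteoclasts, melanocytes, T cells, mast cells, fibroblasts, endothelium, dermal papilla, basal keratinocytes and hair germ) were chosen with earlier results of these data known. Values per library are given for members that passed in a transgenic contrast or in the difference (at most 20 by p in IFE) and for Tfeb, Lamp1, Lamp2, Ctsb, Ctsd and Ctsl. Neu1, Mcoln1 and Naglu were added after their values were seen. Gene coordinates and exon lengths are from GENCODE M21, and promoters were searched as strings in RefSeq windows of GRCm38.p6.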

Additional observations from a re-analysis of the deposited data

Results flagged for a closer look

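For 3 members the transgenic effects in the fractions stood apart: Ctsz passed the test of the difference (HG effect minus IFE effect), while Neu1 and Mcoln1 did not pass it but had libraries on opposite sides. Ctsz had a difference of -3.18 log2 units (edgeR adjusted p = 0.0479): 24.8 and 13.8 CPM in HG of transgenic pups and 14.4 and 14.6 CPM in HG of control pups, with 200 and 113 CPM in IFE of transgenic pups and 13.8 and 11.97 CPM in IFE of control pups. Its call was lost under 11 of 18 alternatives.

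Neu1 had a difference of -2.40 (edgeR adjusted p = 0.166), so the difference did not pass. In HG both transgenic libraries, at 5.37 and 7.76 CPM, lay below both controls, at 18.5 and 15.5 CPM, while in IFE both transgenic libraries, at 33.7 and 30.2 CPM, lay above both controls, at 16.7 and 15.1 CPM. Mcoln1 had a difference of -1.65 (edgeR adjusted p = 0.574), which did not pass either. Its HG libraries had 8.36 and 3.51 CPM in transgenic pups and 9.93 and 15.3 CPM in control pups, and its IFE libraries 24.95 and 20.03 CPM in transgenic pups and 16.0 and 13.8 CPM in control pups.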

How the results depend on the processing

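The count of members called between genotypes in IFE (23) was between 17 and 28 under the other scalings, tools and filters, 11 to 26 with 1 library left out, 9 without both libraries of pup 4 and 12 without the 2 Rn45s-rich libraries. In HG (1) it was 2 with library size alone, 2 with no filter, 4 with DESeq2 (Arsb, Ctsb, Gusb and Naglu), 0 with voom, 0 to 2 with 1 library left out, and 0 without pup 4, without the Rn45s-rich libraries or in a fit on HG alone. HG against IFE in transgenic pups (20) gave 17 to 24 under other tools and scalings, 3 to 25 with 1 library left out, 0 without pup 4 and 11 without the Rn45s-rich libraries; in control pups (0) it gave 1 with DESeq2. The difference of effects (1) gave 5 with library size alone, 5 with no filter, 10 with DESeq2, 0 with voom, 0 with the older quasi-likelihood method, 0 without Rn45s, 0 to 8 with 1 library left out, and 0 without pup 4 or the Rn45s-rich libraries. With pup as a block, 24 members were called between HG and IFE in transgenic pups, 0 in control pups and 7 in the difference, and no call between genotypes within a fraction was fitted with the block, since these compare different pups. The causes were not tested; fits with fewer libraries have fewer degrees of freedom, and a group left with 1 library is assumed to vary like the other groups. No member called in IFE changed sign under the 18 alternatives; of the others, Ctsk ran between -1.33 and 4.66 and Smpd1 between -0.43 and 0.28. Ctsd and Tfeb lost their IFE call in 10 of 18, and Arsb its HG call in 8 of 18. Members near 3 counts (Ctsk outside HG of control pups, and Atp6v0d2 outside IFE of transgenic pups) are limited by depth. The share of all genes called is given above only for the main fit and without pup 4 or the Rn45s-rich libraries.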
